A study of Mus musculus with 9 samples.

Results

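The genes described here are 33 components of the glutamatergic synapse, taken by symbol from the 40879 genes of the deposited tables. They are 4 subunits of AMPA receptors, 7 of NMDA receptors, 5 of kainate receptors, 6 metabotropic receptors, 3 vesicular transporters, 3 uptake transporters, and 5 postsynaptic scaffolds and kinases. RNA came from the spinal cord of male mice in 3 groups of 3 libraries each, called sham, SNI and SNI+LDN193189. SNI commonly stands for spared nerve injury, a surgical model of neuropathic pain, although the labels do not spell the letters out. LDN193189 is a small-molecule inhibitor of bone morphogenetic protein (BMP) receptor kinases, among them ACVR1, which the title of the series names. Strain, age, cord segment and side, time after surgery, and how LDN193189 was dosed, given and dissolved are not in the labels. Neither the sham nor the SNI group is said to have received a vehicle. The labels do not say either that replicates came from separate animals, so p-values measure the spread between these samples, which may be technical.

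Glutamate is the main fast excitatory transmitter of the spinal cord, where it carries input from sensory fibres to dorsal horn neurons. AMPA and kainate receptors pass the fast current, NMDA receptors add a slower calcium-carrying current, and metabotropic receptors act through G proteins. Vesicular transporters load glutamate for release, and uptake transporters, mostly on astrocytes, remove it. Stronger glutamate signalling in the dorsal horn is a textbook feature of central sensitization, the state in which pain pathways respond more than before an injury.

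Several properties of the libraries touch every result. The column names give only the letters S, N and L, read here as sham, SNI and SNI+LDN193189; if S stood for SNI, each direction between those groups would turn. Sprr1a, a gene that injured neurons switch on, had 0.161, 0.234 and 0.215 CPM (counts put on a common library size) in the columns read as sham and 6.62, 15.1 and 23.0 CPM in those read as SNI. In the SNI+LDN193189 columns it had 6.38, 17.4 and 0.687 CPM, so replicate 3 of that group stood near the sham level. The summed level of 10 Schwann cell and nerve root markers was 930.4, 2291 and 6347 CPM in sham, 351, 658 and 955 CPM in SNI, and 1986, 976 and 846 CPM in SNI+LDN193189. All 10 were lower in SNI than in sham and higher in SNI+LDN193189 than in SNI, with none called. Sham replicate 1 also held 713 CPM of muscle markers, where no other library was above 112 CPM. Pvalb, 1 of these 8 markers, had 76.7 to 145 CPM across the libraries, so it made up most of the sum in the others. Acta1 ran from 0.511 to 222 CPM. The summed level of 14 neuronal markers ran from 11059 to 12808 CPM in sham, 12245 to 13020 CPM in SNI and 12010 to 12882 CPM in SNI+LDN193189, and 13 of the 14 were higher in SNI than in sham. Fewer cells of a type and less RNA per cell cannot be told apart in such tissue. As to the labelled tissue, the astrocyte and microglia markers Aqp4 and P2ry12 were listed at 0 in every library, while the other 9 markers of each of those glia were tested.

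No glutamate gene was called in any comparison. With the edgeR quasi-likelihood test and Benjamini-Hochberg adjustment over the 18245 genes tested, 0 of the 33 passed an adjusted p of 0.05 for SNI against sham, where 0% of all genes passed. The count was also 0 for SNI+LDN193189 against SNI, beside 0.00548% of all genes, and for SNI+LDN193189 against sham, beside 0.0164%. In the joint test of the 3 groups it was 0 as well, beside 0.00548%. DESeq2, limma-voom and limma on FPKM (counts per unit of gene length and library size) called 0 of the 33 too. At an unadjusted p under 0.05 the same edgeR tests passed 2, 4 and 3 members in the order above and 4 in the joint test, which is 6.06, 12.1 and 9.09% of the members for the single comparisons. Among all genes these shares were 5.33, 3.88 and 8.56%, and 5.94% for the joint test. The 4 members that passed for SNI+LDN193189 against SNI and the 3 for SNI+LDN193189 against sham all had lower values in the treated group, where 2.19 and 4.49% of all genes passed in that direction. All 33 genes passed the low-count filter, with 14 to 101374 counts per library.

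Most of the 33 were measured closely enough to bound a difference. For SNI against sham, the 95% interval of the fold change lay within 1.25-fold either way for 24 members and within 1.5-fold for 30. The shares of all tested genes within those bounds were 47.3 and 66.4%. SNI+LDN193189 against SNI gave 22 and 30 members, beside 46.9 and 66.7%, and SNI+LDN193189 against sham gave 24 and 29, beside 44.5 and 65.1%. The members outside 1.5-fold were Grm2, Slc17a7 and Slc17a8, the least abundant 3 by FPKM, joined by Grik1 in the last comparison. These intervals are not adjusted for the number of genes.

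**Figure D1:**
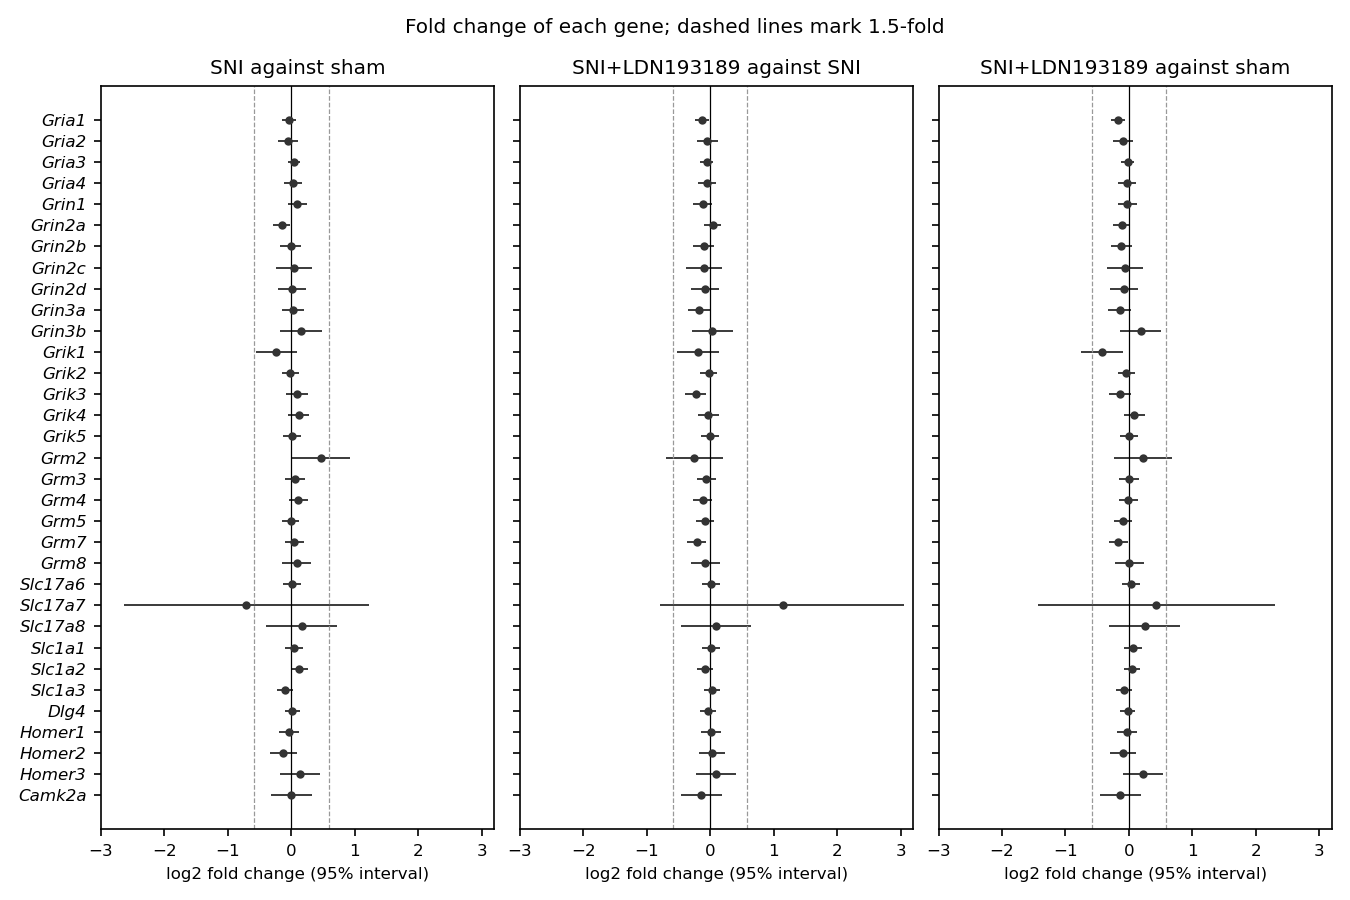
Log2 fold change (horizontal axis) of each of the 33 genes (vertical axis) in each of the 3 comparisons, with points for the edgeR estimate and bars for its 95% interval, from 3 libraries a group. Dashed lines mark 1.5-fold either way; all but 3 or 4 bars per panel end inside them, and Slc17a7 has the widest.

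The level per gene length, in FPKM, was used to rank the members in the cord. Such orders rest on the lengths that the authors divided by, and some differ in CPM. In CPM, for instance, Gria4 had 301 to 361 and Slc17a6 229.8 to 285. Slc1a2, the main astrocytic glutamate transporter, was the most abundant at 196 FPKM on average over the 9 libraries (176 to 211). Slc17a6, which loads glutamate into vesicles in most spinal excitatory neurons, followed at 58.4 FPKM (52.5 to 62.7), and the AMPA subunit gene Gria4 at 51.6 FPKM (47.0 to 57.3), so these neighbours overlapped in range while Slc1a2 stood clear of both. At the low end were Slc17a7, the vesicular transporter typical of the forebrain, at 1.37 FPKM (0.134 to 3.08), the presynaptic receptor Grm2 at 0.690 FPKM (0.573 to 0.947), and Slc17a8 at 0.484 FPKM (0.346 to 0.625). Slc17a6 thus made up 97.0% of the summed FPKM of the vesicular family, Slc17a7 2.25% and Slc17a8 0.799%.

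Within the AMPA family, Gria4 held 39.3% of the summed FPKM, Gria1 24.0%, Gria3 21.2%, and Gria2, whose product keeps calcium out of the channel, 15.6%. Across single libraries the Gria4 share stayed between 38.1 and 41.5% and the Gria2 share between 14.8 and 16.7%, which do not overlap. The order of Gria1 and Gria2 rested on the length that the authors divided by. In CPM, without length, Gria2 had 261 to 334 and Gria1 180.5 to 221. The same held for Gria3, with 172 to 186 CPM, while Gria4, with 301 to 361 CPM, overlapped Gria2. Among NMDA genes, Grin1, the obligatory subunit, held 48.0%, and Grin3a, a subunit that lowers calcium flow, held 19.5%. Of the glutamate-binding Grin2 subunits, Grin2d at 3.94 FPKM (3.54 to 4.80), Grin2a at 3.82 FPKM (3.50 to 4.27) and Grin2b at 3.13 FPKM (2.83 to 3.54) lay close together per length. Grin2c, at 1.73 FPKM (1.40 to 2.00), was below all of them in every library. In CPM, Grin2d had 24.7 to 32.8, below Grin2a at 69.8 to 85.1 and Grin2b at 71.0 to 88.7. Grin3a, with 65.6 to 81.9 CPM, overlapped Grin2a and Grin2b there.

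Kainate subunits lay close to each other in FPKM. They ran from Grik5 at 6.23 FPKM (5.71 to 6.76), which needs a partner subunit to form a channel, to Grik1 at 3.34 FPKM (2.72 to 4.97). Between them were Grik2 at 4.45, Grik4 at 4.36 and Grik3 at 3.92 FPKM. In CPM they lay further apart, with 68.2 to 80.2 for Grik2 and 16.4 to 29.5 for Grik1. Among metabotropic receptors, Grm5, which is coupled to calcium release, led at 16.1 FPKM (15.0 to 18.1). Grm3 and Grm7, receptors that dampen cyclic AMP, followed at 7.65 and 7.19 FPKM with overlapping ranges, then Grm4 at 5.07, Grm8 at 2.17 and Grm2. Astrocytic Slc1a3 had 21.6 FPKM (20.0 to 23.7) and the neuronal transporter Slc1a1 28.0 FPKM (25.3 to 29.3). In CPM their order was the other way, with 133 to 156 for Slc1a3 and 92.2 to 109.9 for Slc1a1. Of the scaffolds, Dlg4, which encodes PSD-95 and anchors NMDA receptors, stood at 29.4 FPKM (27.4 to 31.1), while Homer1, Homer2 and Homer3, which tether group I metabotropic receptors, lay between 2.16 and 3.42 FPKM. Camk2a, a calcium-dependent kinase of the postsynaptic density, had 26.4 FPKM (22.5 to 31.1).

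**Figure D2:**
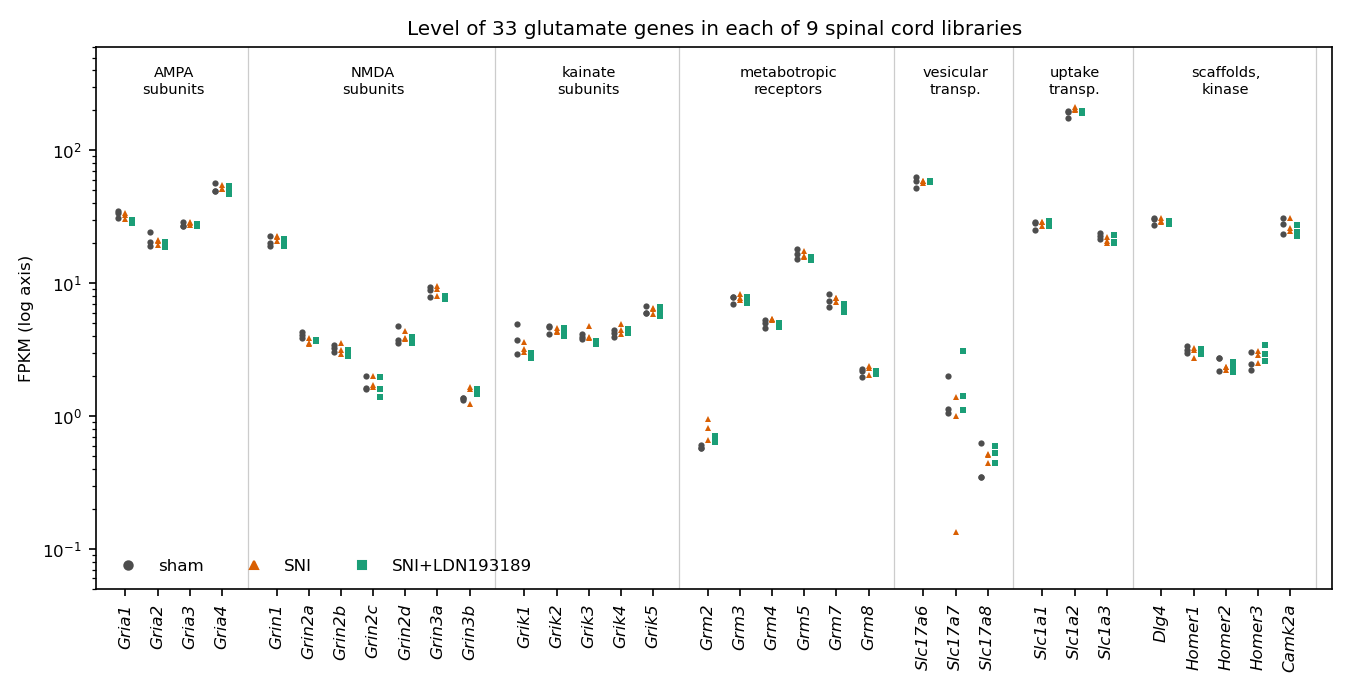
FPKM (log axis) of the 33 genes by family (horizontal axis) in each of the 9 libraries, with 1 symbol per library and symbol shape for the group. The 3 groups lie on top of each other for most genes; Slc1a2 is highest, between 176 and 211 FPKM, and the Slc17a7 points are the most scattered, from 0.134 to 3.08 FPKM.

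The first comparison, SNI against sham, asks how the cord after nerve injury differed from that of the operated control. Of the 33 members, 22 had a higher and 11 a lower value in SNI, with a median log2 fold change of 0.022, beside 49.9% lower and a median of 0.0005 over all tested genes. A member median varied between libraries of 1 group by 0.057 (SD pooled over the 3 groups). The libraries of the 2 groups did not overlap for 4 members, which is 12.1% of them, beside 8.87% of all genes. The direction of the median was not stable. It was -0.066 with 23 members lower with the nerve root covariate, and -0.009 with 17 lower with the neuronal covariate. All 10 nerve root markers were lower and 13 of the 14 neuronal markers higher in SNI than in sham. These 2 fits may therefore take up part of the group difference. The median was -0.025 with 21 lower without sham replicate 3, and -0.010 with 18 lower without SNI replicate 2. The members without overlap were Grm2, Grm4 and Slc1a2, higher in SNI (4.45% of all genes), and Slc1a3, lower (4.43%).

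Grin2a, an NMDA subunit gene at chromosome 16:9567898-9995560 (GRCm38, minus strand), had the smallest unadjusted p of the members. Its level was 85.1, 84.4 and 76.5 CPM in sham, 79.6, 72.0 and 69.8 CPM in SNI and 74.0, 76.9 and 76.2 CPM in SNI+LDN193189. Sham replicate 3 lay below SNI replicate 1, so sham and SNI overlapped, and the treated libraries sat within the span of the SNI libraries. The log2 fold change of SNI against sham was -0.15 (SE 0.0620), with an edgeR p of 0.0268 and an adjusted p of 0.927. With the summed nerve root markers as a covariate it was -0.288 and again not called.

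Grm2 (chromosome 9:106643095-106656082, minus strand) encodes an inhibitory autoreceptor at glutamate terminals. It had 1.88, 2.05 and 1.88 CPM in sham, 2.73, 2.21 and 3.10 CPM in SNI, and 2.13, 2.27 and 2.35 CPM in SNI+LDN193189. All SNI libraries and all treated libraries were above all sham libraries, at a low level. The log2 fold change for SNI was 0.47 (SE 0.213, edgeR adjusted p 0.927), with a 95% interval from 0.01 to 0.92, and 0.185 in limma on log2(FPKM + 1). An antisense gene, Gm28111, overlaps an exon of Grm2 on the other strand, as annotated genes do for 11 of the 33 members, Grm7, Slc1a2, Grin1 and Grin2b among them. Whether the authors counted by strand is not given in the sources used here, so reads of such pairs cannot be told apart.

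The astrocytic uptake genes Slc1a2 and Slc1a3 had small differences of opposite sign. Slc1a2 (chromosome 2:102658659-102790784, plus strand) had 2591, 2724 and 2331 CPM in sham, 2893, 2727 and 2727 CPM in SNI, and 2567, 2709 and 2630 CPM in SNI+LDN193189. Every SNI library was above every sham and every treated library, though sham replicate 2 lay only just below. The log2 fold change of SNI against sham was 0.13 (SE 0.0614, edgeR adjusted p 0.927). It was 0.016 with the nerve root covariate, 0.054 with the neuronal marker covariate and 0.064 without sham replicate 3, the library richest in nerve root markers. Slc1a3 (chromosome 15:8634124-8710764, minus strand) had 149, 147 and 154 CPM in sham, 136, 139 and 145 CPM in SNI, and 133, 156 and 137 CPM in SNI+LDN193189. Sham lay above SNI in every library, and the treated group spanned both, with a log2 fold change for SNI of -0.10 (SE 0.0597, edgeR adjusted p 0.941).

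As a share of the FPKM of Slc1a1, Slc1a2 and Slc1a3, Slc1a2 took 79.0% ± 0.724 in sham, 80.7% ± 0.420 in SNI and 79.6% ± 0.177 in SNI+LDN193189 (SD, n = 3). SNI stood above both other groups in every library. The difference from sham was 1.64 percentage points and that of treated from SNI -1.06, each with a two-sided exact permutation p of 0.10, the smallest that 3 against 3 can give, and 0.750 after adjustment over the 15 share tests. Both differences use the same SNI libraries. The other 13 tests, on Gria2 among the AMPA genes, Grin1 among the NMDA genes, Grin2b among the Grin2 genes and Slc17a6 among the vesicular genes, and on Slc1a2 in the remaining comparison, gave exact permutation p of 0.200 to 0.900 with overlapping groups.

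**Figure D3:**
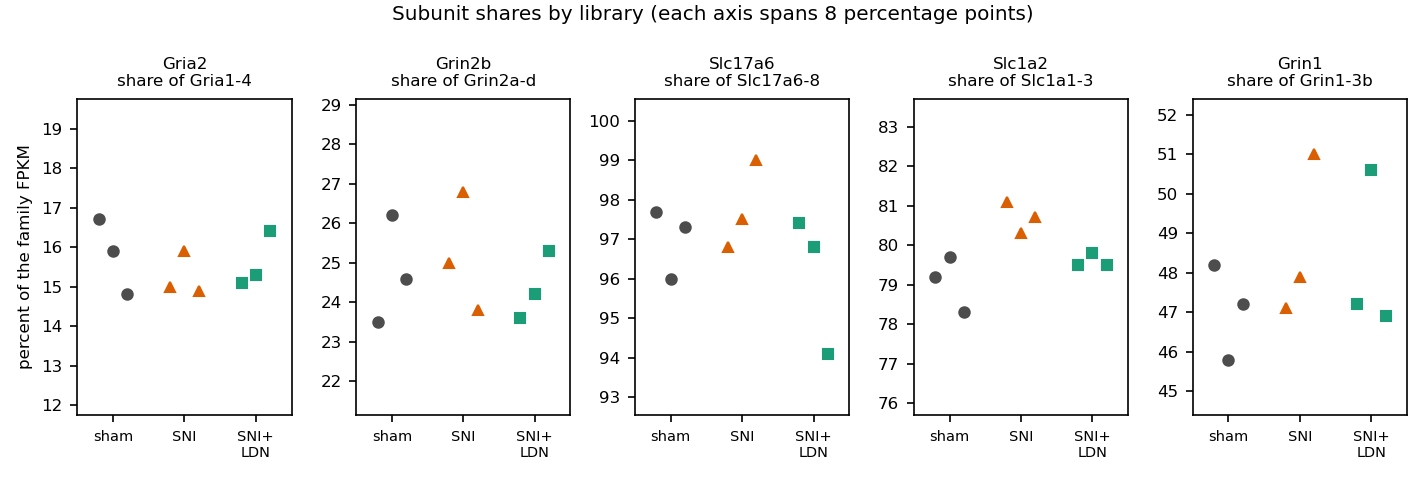
Percent of a family's summed FPKM (vertical axes, each spanning 8 percentage points and not starting at 0) held by the named gene in each library, by group. Only for Slc1a2 do 2 groups separate: SNI at 80.7% ± 0.420 against sham at 79.0% ± 0.724 and SNI+LDN193189 at 79.6% ± 0.177 (SD, n = 3).

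The receptor and scaffold genes best known from pain research lay close together between SNI and sham. Gria2 had 334, 286 and 261 CPM in sham, 272, 294 and 284 CPM in SNI, and 262, 281 and 283 CPM in SNI+LDN193189. Grin1 had 96.6, 89.1 and 81.7 CPM in sham, 91.4, 96.1 and 97.9 CPM in SNI, and 82.6, 95.3 and 84.7 CPM in SNI+LDN193189. For both genes the sham group was the most spread, and it contained all or nearly all of the other values. Grin2b, a subunit long studied in spinal pain, had 81.2, 87.2 and 73.9 CPM in sham, 79.7, 88.7 and 72.0 CPM in SNI, and 71.0, 73.4 and 79.0 CPM in SNI+LDN193189. Grm5 had 161, 151 and 133 CPM in sham, 143, 156 and 141 CPM in SNI, and 135, 140.2 and 142 CPM in SNI+LDN193189. Sham and SNI overlapped for both, and the 95% interval of the log2 fold change ran from -0.18 to 0.16 for Grin2b and from -0.15 to 0.13 for Grm5. For Gria2 it ran from -0.21 to 0.11 and for Grin1 from -0.05 to 0.24.

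The vesicular pair differed in precision. Slc17a6 had 262, 285 and 229.8 CPM in sham, 266, 265 and 253 CPM in SNI, and 261, 268 and 264 CPM in SNI+LDN193189. Its groups overlapped throughout, and the interval for SNI against sham was -0.13 to 0.15 on the log2 scale. Slc17a7 had 3.05, 6.01 and 3.23 CPM in sham, 4.16, 2.96 and 0.387 CPM in SNI, and 3.25, 4.18 and 9.05 CPM in SNI+LDN193189. SNI replicate 3 was the lowest library and SNI+LDN193189 replicate 3 the highest, and the interval for SNI against sham ran from -2.64 to 1.22, on both sides of 0.

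Postsynaptic genes gave the same picture of overlap. Dlg4 had 257, 257 and 224 CPM in sham, 251, 257 and 239 CPM in SNI, and 234, 246 and 247 CPM in SNI+LDN193189. Homer1 had 59.7, 57.3 and 53.0 CPM in sham, 60.0, 56.3 and 48.8 CPM in SNI, and 55.9, 53.2 and 57.6 CPM in SNI+LDN193189. Camk2a had 148, 168 and 122 CPM in sham, 142, 166 and 129.8 CPM in SNI, and 120.4, 130.3 and 147 CPM in SNI+LDN193189. Sham and SNI overlapped for all 3 genes, and the interval of the log2 fold change was narrow for Dlg4, -0.11 to 0.14, and wider for Camk2a, -0.32 to 0.32.

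The second comparison, SNI+LDN193189 against SNI, asks how the cord differed with LDN193189 after nerve injury, where drug and delivery cannot be told apart. It had the largest lean to 1 side: 23 members were lower and 10 higher in the treated group, 69.7% lower beside 50.2% of all genes, with a median log2 fold change of -0.057 beside -0.0007. All 4 AMPA, all 5 kainate and all 6 metabotropic genes had lower values, with NMDA genes at 5 of 7, while the 3 vesicular genes and 2 of the 3 uptake genes had higher ones. Groups did not overlap for 6 members, all lower in the treated libraries, which is 18.2% of the members beside 5.56% of all genes in that direction and 5.71% in the other. These were Gria1, Gria3, Grik3, Grm4, Grm7 and Slc1a2. None was called. The median lay at the size of the SD between libraries of a group, 0.057, but that SD pools the 3 groups, and sham was the most spread. On the log2 scale, the median member deviation from each gene's mean was 0.002 to 0.051 in SNI libraries. In treated libraries it was -0.058 to -0.004, apart from SNI by a narrow margin. The median fold change was -0.006, with 18 members lower, once the nerve root markers entered as a covariate. Without SNI replicate 2 the median was -0.027, and without SNI+LDN193189 replicate 3, the library low in Sprr1a, 28 members were lower.

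Grm7 (chromosome 6:110645581-111567230, plus strand), a presynaptic receptor that limits transmitter release, had the smallest unadjusted p. It had 101, 83.4 and 89.0 CPM in sham, 90.8, 96.4 and 94.7 CPM in SNI, and 75.4, 81.5 and 86.9 CPM in SNI+LDN193189. The treated libraries were below all SNI libraries, and the highest of them lay among the sham values. The log2 fold change was -0.21 (SE 0.0712, edgeR p 0.00969, adjusted p 0.9996), and -0.262 without SNI+LDN193189 replicate 3.

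Grik3 (chromosome 4:125490700-125714173, plus strand), a kainate subunit of low glutamate affinity, had 43.0, 42.5 and 39.4 CPM in sham, 41.4, 50.5 and 41.1 CPM in SNI, and 38.7, 38.1 and 36.8 CPM in SNI+LDN193189. The treated libraries were the lowest of all, and SNI replicate 2 the highest. The log2 fold change was -0.23 (SE 0.0796, edgeR p 0.0114, adjusted p 0.9996), and -0.123 without SNI replicate 2.

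Since the compound acts on BMP receptors, the promoters of these 2 genes, the ones with the smallest p that the RefSeq promoter table (GRCm38.p6) held, are shown for the 250 bases upstream of the start. Capitals mark GGCGCC, the GC-rich element that BMP-activated SMAD proteins are known to bind, which reads the same on both strands.
Grik3 promoter, chr4:125490446-125490695, plus strand: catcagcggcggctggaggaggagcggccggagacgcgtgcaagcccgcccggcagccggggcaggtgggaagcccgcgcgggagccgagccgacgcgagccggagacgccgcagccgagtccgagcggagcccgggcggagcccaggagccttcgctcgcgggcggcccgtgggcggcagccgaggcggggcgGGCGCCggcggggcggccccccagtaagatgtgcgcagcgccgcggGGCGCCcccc
Grm7 promoter, chr6:110645262-110645511, plus strand: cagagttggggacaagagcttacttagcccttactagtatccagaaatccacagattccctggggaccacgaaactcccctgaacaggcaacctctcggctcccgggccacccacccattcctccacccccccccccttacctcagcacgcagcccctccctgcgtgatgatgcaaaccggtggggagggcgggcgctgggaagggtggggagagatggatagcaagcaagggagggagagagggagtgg
The Grik3 window held 2 matches and 82% G and C. The Grm7 window shown, the first of 2 listed, held 0 matches and 62%. The table held windows for 24 of the 33 members, some with more than 1, which made 33 windows. GGCGCC lay in 7 of these windows, those of Dlg4, Grik2, Grik3, Grik4, Grm3, Grm8 and Homer1. Only Grik3 of these genes was among the 4 members with the smallest p in this comparison. The 7 were 21.2% of the member windows, beside 9.59% of all 32851 windows. Member windows were also richer in G and C, with a median of 61.2% beside 52.4%, and the element is made of these bases alone. TGACGTCA, the full cyclic AMP response element of activity-regulated genes, which also reads the same on both strands, was in 0 member windows beside 1.55% of all windows. A match describes letters in this window and does not show binding.

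Gria1 (chromosome 11:57011387-57330244, plus strand) encodes the AMPA subunit best known for entering synapses during plasticity. It had 221, 199.9 and 210.5 CPM in sham, 196, 207 and 210.1 CPM in SNI, and 180.5, 191 and 187 CPM in SNI+LDN193189. All treated libraries lay below all sham and all SNI libraries, while sham and SNI overlapped. Against SNI the log2 fold change was -0.13 (SE 0.0525, edgeR p 0.0221, adjusted p 0.9996). Grin3a (chromosome 4:49661611-49845744, minus strand) had 75.7, 81.7 and 66.1 CPM in sham, 79.0, 81.9 and 67.6 CPM in SNI, and 66.8, 65.6 and 69.3 CPM in SNI+LDN193189. Replicate 3 of sham and of SNI lay as low as the treated libraries, so the groups overlapped, with a log2 fold change of -0.18 (SE 0.0816, edgeR p 0.0456, adjusted p 0.9996). It was -0.104 with the nerve root covariate.

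**Figure D4:**
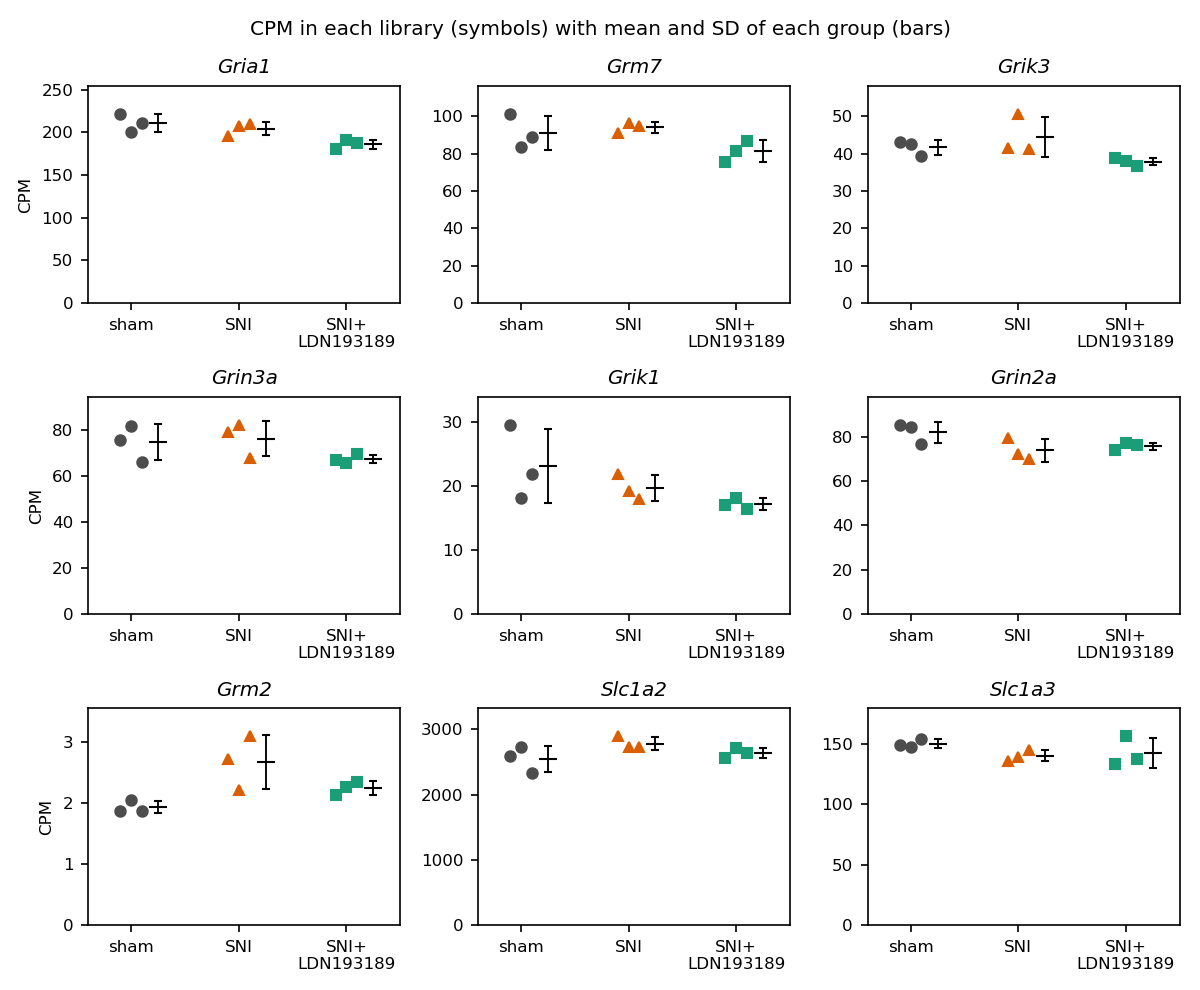
CPM (vertical axes from 0) of 9 members in each library, with symbols for libraries and bars for the mean and SD of each group (n = 3). The Gria1 treated libraries, 180.5 to 191 CPM, sit below all others, as do those of Grik3 at 36.8 to 38.7 CPM, while the Grin2a and Slc1a3 groups overlap in part.

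The third comparison, SNI+LDN193189 against sham, shares its libraries with the other two and is set beside them without a test of likeness. Here 22 members were lower and 11 higher, 66.7% lower beside 52.0% of all genes, with a median log2 fold change of -0.028 beside -0.0069. Groups did not overlap for 4 members, 12.1% beside 13.1% of all genes: Gria1 and Grik3 were lower in the treated libraries (6.31% of all genes), and Grm2 and the NMDA subunit gene Grin3b were higher (6.82%). The median and the count depended on single sham libraries, at 0.010 and 13 lower without sham replicate 1, and at -0.075 and 27 lower without sham replicate 3.

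Gria1 again led, with a log2 fold change of -0.17 (95% interval -0.29 to -0.06, edgeR p 0.00447, adjusted p 0.425), and -0.180 without SNI+LDN193189 replicate 3. Its adjusted p was 0.157 in DESeq2. Grik1 (chromosome 16:87895900-88290265, minus strand), a kainate subunit found in sensory neurons, had 29.5, 18.1 and 21.9 CPM in sham, 21.9, 19.2 and 18.0 CPM in SNI, and 17.1, 18.2 and 16.4 CPM in SNI+LDN193189. Sham replicate 1 was the highest library by a wide margin, and sham replicate 2 lay among the treated values. The log2 fold change was -0.43 (SE 0.151, edgeR p 0.0159, adjusted p 0.547), and -0.216 without sham replicate 1. For Grm7 it was -0.17 (edgeR adjusted p 0.562), and -0.087 without that same library. Grin2a came next at -0.11 (edgeR p 0.0831, adjusted p 0.629), and at -0.183 with the nerve root covariate. In the joint test of the 3 groups, the smallest edgeR p were those of Gria1, Grm7, Grik3 and Grik1, with adjusted p from 0.769 to 0.832.

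Part of the spread between libraries was common to the members. As the median over members of the log2 deviation from each gene's mean, the libraries stood at 0.064, 0.039 and -0.104 in sham, 0.014, 0.051 and 0.002 in SNI, and -0.058, -0.032 and -0.004 in SNI+LDN193189. Sham thus held both the highest and the lowest library. Sham replicate 3, with the most nerve root marker RNA, was the lowest library for 12 of the 33 members and the highest for 0. Among all tested genes, 16.1% were lowest there and 17.5% highest. Sham replicate 1 was the highest for 10, beside 14.1% of all tested genes. The part of the nerve root and muscle RNA in these levels was not tested beyond the covariate fits.

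**Figure D5:**
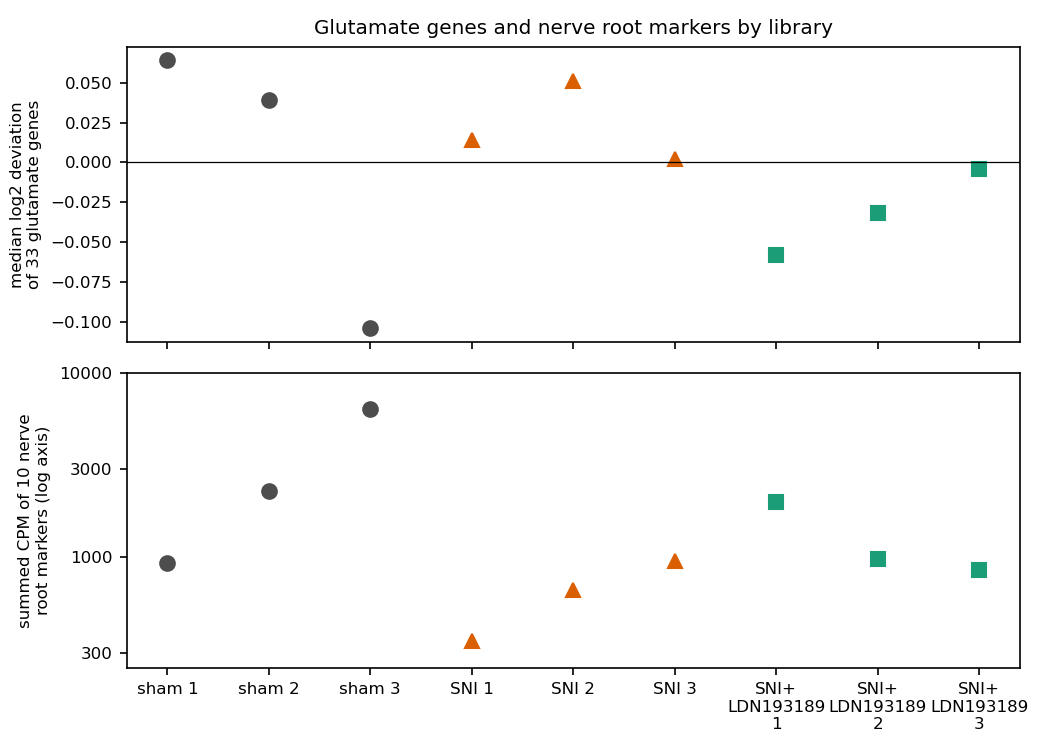
Upper panel: median log2 deviation of the 33 genes from their means in each library. Lower panel: summed CPM (log axis) of 10 Schwann cell and nerve root markers in the same libraries. Sham replicate 3 has the lowest member median, -0.104, and the highest marker sum, 6347 CPM.

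Other genes of the glutamate synapse, 61 on a wider list, gave 56 that were tested and 0 called in edgeR, DESeq2 and limma-voom in each comparison. At an unadjusted edgeR p under 0.05 there were 0 for SNI against sham, 3 for SNI+LDN193189 against SNI and 4 for SNI+LDN193189 against sham. Among all tested genes the shares were 5.33, 3.88 and 8.56% in that order. The synaptic adhesion genes Lrrtm1, Lrrtm2 and Lrrtm3 and the pentraxin receptor gene Nptxr were listed at 0 in all libraries, like Aqp4 and P2ry12. Whether such genes were silent or could not be counted was not tested. Grm6 was left out of the tests for low counts. In SNI 32 of the 56 were higher and 24 lower than in sham (median log2 fold change 0.028), beside 49.9% of all genes lower. In the treated group 19 were higher and 37 lower than in SNI (median -0.040), beside 50.2% of all genes lower. Against sham, 30 were higher and 26 lower in the treated group (median 0.006), beside 52.0% of all genes lower.

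Named by the smallest p for SNI against sham, the scaffold gene Dlgap3 had 50.1, 50.4 and 46.6 CPM in sham and 57.4, 53.0 and 52.2 CPM in SNI. The kinase gene Camk2g had 423, 441 and 409.9 CPM in sham and 448, 451 and 470.4 CPM in SNI. Both were higher in all SNI libraries than in all sham libraries, with edgeR p of 0.0539 and 0.0570, and neither was called. Dlgap3 had a log2 fold change of 0.14, and of 0.050 with the nerve root covariate.

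In the treated group the scaffold gene Shank1, which links NMDA and metabotropic receptor complexes, had 130.1, 137 and 127 CPM against 153, 154 and 148 CPM in SNI and 162, 138 and 141 CPM in sham. The treated libraries were the lowest 3 of all, with a log2 fold change against SNI of -0.21 (SE 0.0613, edgeR p 0.00408, adjusted p 0.9996). Arc, an immediate early gene induced by synaptic activity that removes AMPA receptors from the surface, had 21.8, 15.5 and 19.4 CPM against 26.4, 29.3 and 21.4 CPM in SNI. The groups overlapped at their edge, with a log2 fold change of -0.44 (SE 0.132, edgeR p 0.00533, adjusted p 0.9996). The scaffold gene Dlgap2 had 28.8, 32.5 and 31.8 CPM against 36.7, 35.5 and 34.1 CPM in SNI (edgeR p 0.0319), below every SNI library. Its log2 fold change of -0.19 was -0.095 with the nerve root covariate and -0.111 in limma on log2(FPKM + 1).

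Against sham, the treated group's smallest p belonged to Shank1 at -0.16 on the log2 scale (edgeR p 0.0166), or -0.089 without sham replicate 1, and to Slc7a11, the cystine-glutamate exchanger. Slc7a11 had 22.4, 22.5 and 20.2 CPM against 26.1, 22.7 and 33 CPM in sham (log2 fold change -0.33, SE 0.127, edgeR p 0.0219). Its log2 fold change was -0.174 without sham replicate 3, -0.194 with the nerve root covariate and -0.170 with the neuronal covariate. The treated libraries were below all sham libraries, the nearest by a narrow margin. Slc1a7, a transporter typical of the retina, came next with 0.402, 0.418 and 0.401 CPM against 0.268, 0.0586 and 0.161 CPM in sham, at the lowest level of the genes named (edgeR p 0.0406).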

How the data were processed

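Poly(A)-selected RNA was sequenced as strand-specific paired 150 bp reads, per the labels' protocols, which describe extraction from cell lines although the tissue is spinal cord. The authors deposited whole-number counts per gene and FPKM values. Dividing a count by its library total and by 1 length per gene returned the FPKM, for 26285 genes within a relative tolerance of 1e-09. Per the submitters' processing notes the build is mm10. Aligner, counter, annotation and strand setting are not given in the sources used here. Totals were 33432776 to 37190467 counts, and 70.7 to 71.8% of the counts above 0 were even.

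Group means of all 9 libraries were fitted once in edgeR (4.0.16, robust quasi-likelihood F test, R 4.3.3) after filterByExpr (18245 genes) and TMM scaling (0.984 to 1.02), with 6 residual degrees of freedom. P-values were adjusted by Benjamini-Hochberg over all tested genes and called under 0.05. CPM use the TMM factors. The script was tested on simulated data. Shares of FPKM were compared by exact permutation. DESeq2 1.42.0, limma 3.58.1 (voom, and log2 of FPKM plus 0.1 or 1) and other settings were alternatives. Positions come from GENCODE M21 (GRCm38) and promoters from RefSeq.

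The members and lists were chosen with earlier results of these data known. Values in every library are given for the 4 members with the smallest p in each test, for 13 members chosen for the subject and, in the compared groups, for up to 3 other glutamate genes a comparison, of which 1 is not reported here.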

Additional observations from a re-analysis of the deposited data

How the results depend on the processing

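None of the 33 members was called in any comparison under any of the 20 alternatives. These were DESeq2, limma-voom, limma on FPKM plus 0.1 or 1, RLE scaling, library totals, no low-count filter and the compared groups only. The others were the replicate block, the nerve root or neuronal marker level as a covariate, and each library left out. The genes named for the smallest p in a single comparison kept their direction there and did not pass under these alternatives. Direction under them is not given for the other named members. The count of members with a lower value, and CPM under RLE scaling or library totals, were added after seeing the data. The edgeR fits under those scalings were planned. For SNI against sham the nerve root covariate turned the member median to -0.066, with 23 members lower, and the neuronal covariate gave 17 lower. Leaving out 1 library gave 9 (without sham replicate 1) to 21 (without sham replicate 3) lower in that comparison and medians of -0.025 to 0.051. It gave 13 to 27 lower and medians of -0.075 to 0.010 for SNI+LDN193189 against sham, and 22 to 28 lower for SNI+LDN193189 against SNI. The cause was not tested.

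Counts over all genes, 0, 1, 3 and 1 in the order SNI against sham, SNI+LDN193189 against SNI, SNI+LDN193189 against sham and the joint test, were 24, 5, 72 and 78 in DESeq2. With the nerve root covariate they were 13, 1, 13 and 17, with the neuronal covariate 0, 0, 1 and 1, and without the low-count filter 0, 2, 30 and 25. Limma-voom called 2 for SNI+LDN193189 against SNI and the compared groups alone called 3. Limma on FPKM called 0 there and 1 for SNI+LDN193189 against sham at both pseudocounts, with 0 in the joint test at the larger. Without 1 library the counts ran from 0 to 38 (without sham replicate 1), 0 to 2, 1 to 17 (without SNI replicate 3) and 1 to 19 (without sham replicate 1). The cause was not tested. Same-numbered libraries correlated at -0.109 to 0.144 in their deviations, so the numbers were not taken to pair the samples. The replicate block gave 0, 0, 4 and 5 calls over all genes and 0 among the members.

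Some shares of FPKM changed sign when 1 library was left out, in percentage points. For SNI against sham the Grin2b share ran from -0.376 to 1.13. For SNI+LDN193189 against SNI the Gria2 share ran from -0.120 to 0.616 and the Grin1 share from -1.67 to 0.693. For SNI+LDN193189 against sham the ranges were -0.719 to 0.225 for Gria2, -0.0186 to 1.84 for Grin1, -1.03 to 0.297 for Grin2b and -1.50 to 0.150 for Slc17a6. The Slc1a2 share kept its sign in each. The 3 libraries a group limit the precision, and the intervals of Slc17a7, Slc17a8 and Grm2 reached past 1.5-fold in each comparison.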
